A study of Mus musculus with 13 samples.

Results

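Vangl1, Vangl2, Celsr1, Fzd3, Fzd6, Scrib, Ptk7, Prickle1, Arhgef19 and Rhoa are genes of planar cell polarity and of the RhoA signal downstream of it, and they were followed here across the cell types of developing mouse back skin, with and without the transcription factor GRHL3. They were taken from a fixed list of symbols, among them Arhgef19, a known GRHL3 target, and all 10 were found among the 27998 gene identifiers of the libraries. Planar cell polarity aligns cells within the plane of an epithelium. The transmembrane proteins CELSR1, FZD3, FZD6, VANGL1 and VANGL2 form complexes across cell borders, with FZD and PRICKLE1 on opposite sides of a cell, SCRIB as a scaffold that works with VANGL2, and PTK7 as a further membrane regulator. The signal reaches actin and myosin through the small GTPase RHOA, which the exchange factor ARHGEF19 switches on. In skin the pathway orients hair follicles, and together with GRHL3 it is known from closure of the neural tube, the eyelids and embryonic wounds.

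The data were droplet single-cell libraries (10x Genomics, 3′ end) of dorsal skin from C57BL/6 mice, in which each captured transcript carries a unique molecular identifier (UMI). The groups were WT and Grhl3-/-, each with 2 libraries at E14.5, 2 at E16.5 and 2 at P0, plus 1 earlier WT library at P0 that has no replicate and whose title names the first version of the chemistry. Whole back skin was taken at E14.5 and E16.5, and separated epidermis at the stage called P0, which the methods give as E18.5/P0. Age and tissue preparation therefore cannot be told apart between E16.5 and P0, and in WT neither can sex, as given below. WT and Grhl3-/- were littermates, the deletion was constitutive, and the Grhl3-/- embryos had spina bifida, with skin taken from an anterior site away from the defect.

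After the limits on genes and mitochondrial UMIs that the methods give, 86507 of 97363 barcodes were kept, between 5058 and 9157 per library with a median of 7448 to 9976 UMIs per cell. No pair of libraries shared more than 1.57% of its barcodes. Clusters were named from marker lists, and "basal-like" and "differentiated-like" cells together make the interfollicular epidermis (IFE) here. All 6 basal markers (Krt5, Krt14, Krt15, Col17a1, Itga6, Itgb4) were present in the basal-like cells of every library. Of the 11 differentiated markers up to 8 were at 0 in the differentiated-like cells before birth in a library and up to 7 at P0. No cluster met the periderm list, and none was named follicle-like at E14.5. Unnamed clusters at P0 whose highest score was the basal list held 17.0% to 21.8% of the cells of a library and enter no class. In the replicated libraries they held 1473 and 1382 cells in WT and 1769 and 1338 in Grhl3-/-. Each exceeds the cells named basal-like there, 445 and 403 in WT and 1468 and 535 in Grhl3-/-. Unnamed clusters at P0 with the differentiated list highest held 244 and 230 cells in WT and 226 and 223 in Grhl3-/-. Cells named differentiated-like were 604 and 659 in WT and 352 and 214 in Grhl3-/-. Before birth no cells of either kind were left out. The part of basal-scored and of differentiated-scored cells that the classes cover thus differs between ages and genotypes. The effect of this was not tested. Y-linked transcripts (87.2 to 147 CPM) were present in 9 libraries and nearly absent, at up to 0.084 CPM, from the other 4. These 4 were the second WT library at E14.5, both WT libraries at E16.5 and the second Grhl3-/- library at E16.5. All 5 P0 libraries carried Y-linked transcripts, whereas the methods give a male and a female for each genotype and age. Sex thus separates WT at E16.5 from WT at P0, and its balance differs between genotypes at E14.5 and E16.5. Its part in the results was not tested.

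Levels are given as counts per 1000000 UMIs of a class in a library (CPM), so that each value is the sum over all cells of that class. A 3′ count does not depend much on gene length, but capture differs between genes, so levels are compared between samples and classes and not between genes. The deleted gene was read first. In IFE cells Grhl3 was at 48.1 and 60.0 CPM in WT and 36.5 and 35.6 CPM in Grhl3-/- at E14.5, at 18.4 and 20.2 against 12.3 and 8.05 CPM at E16.5, and at 15.8 and 16.9 against 2.35 and 7.28 CPM at P0. Grhl3-/- libraries were thus the lower ones at each age without overlap, and the difference passed the test at P0 (log2 change -2.09, adjusted p = 0.000634) and missed it at E14.5 (-0.60, adjusted p = 0.606) and E16.5 (-0.93, adjusted p = 0.253). Transcripts with a 3′ end outside the deleted exons would still be counted, so this gene is a limited check of the labels.

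Arhgef19 (ENSMUSG00000028919) lies on the plus strand of chr4:141239499-141257564 in GRCm38, 5.67 Mb from Grhl3 on the same chromosome. As the listed GRHL3 target it is the gene whose RefSeq promoter window is shown here, 250 bases before and 50 bases after a RefSeq transcript start at chr4:141244838-141245137 (GRCm38.p6, plus strand). The bases before the RefSeq start are in lower case and those from it on are in capitals.
Arhgef19: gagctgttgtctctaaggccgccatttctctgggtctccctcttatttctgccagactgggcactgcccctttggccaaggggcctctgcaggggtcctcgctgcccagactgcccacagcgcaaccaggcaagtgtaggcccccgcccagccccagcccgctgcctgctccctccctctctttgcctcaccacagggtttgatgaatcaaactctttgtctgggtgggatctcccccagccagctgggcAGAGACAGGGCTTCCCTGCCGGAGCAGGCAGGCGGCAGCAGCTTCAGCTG
This start is internal to the gene. It lies 5.589 kb after the first base of the GENCODE gene, 5 of its 8 GENCODE transcripts span the window and 3 GENCODE exons overlap the window. None of the 8 starts at that base, 0 GENCODE exons hold it and 0 of the transcripts hold the 50 bases in capitals, so the start rests on the RefSeq table alone. Grainyhead proteins are known to prefer the palindrome AACCGGTT, which 0.146% of 32851 RefSeq promoter windows hold. The looser form AACNGGTT was searched on both strands and is in 2.09% of them, and its core CCGGTT, which AACCGGTT contains, is in 6.83%. None of the 3 was found in the 7 windows available for Arhgef19, Rhoa, Vangl2, Ptk7 and Prickle1, which says only that these letters are not in these windows. The Arhgef19 window has a GC content of 63.7%, against a median of 52.7% over all windows, and its 7 CpG equal the median.

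In WT skin Celsr1, Fzd6, Arhgef19, Vangl1 and Vangl2 had their highest mean in an epithelial class at each age, and the other 5 genes had theirs outside the epithelium before birth. Celsr1, the long cadherin that bridges neighbouring cells, stood highest in basal-like cells at each age, with 46.4 and 43.2 CPM at E14.5, 49.1 and 55.4 CPM at E16.5 and 106 CPM in each library at P0. The next class before birth, endothelial-like cells, reached 15.96 to 18.7 CPM at E14.5 and 24.0 to 26.5 CPM at E16.5, without overlap. Fibroblast-like cells held 1.32 and 1.15 CPM at E14.5, and within a library Celsr1 was 5.26 ± 0.19 (log2, SE) below basal-like cells (edgeR quasi-likelihood test, adjusted p = 3.29e-19), a difference that was 5.52 ± 0.15 at E16.5. Celsr1 (ENSMUSG00000016028) lies at chr15:85898929-86033777 on the minus strand.

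Fzd6, a Frizzled receptor of the pathway known for hair patterning (ENSMUSG00000022297, chr15:39006034-39038188, plus strand), was also at its highest mean in basal-like cells. At E14.5 it held 35.8 and 48.1 CPM there, above the 29.7 and 25.6 CPM of differentiated-like cells. At E16.5 basal-like cells (27.4 and 34.4 CPM), differentiated-like cells (25.5 and 31.4 CPM) and endothelial-like cells (27.0 to 30.2 CPM) overlapped, and at P0 basal-like cells (63.0 and 51.6 CPM) had the highest mean but overlapped Merkel-like cells (19.7 and 54.7 CPM, from 44 and 61 cells). Fibroblast-like cells had 2.49 and 2.22 CPM at E14.5, lower than basal-like cells by a log2 difference of -4.27 ± 0.21 (adjusted p = 3.44e-16).

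Arhgef19 followed the epithelium as well, although its leading class differed between ages. Follicle-like cells were not named at E14.5 and so could not lead there. Basal-like cells (41.1 and 51.1 CPM) and differentiated-like cells (35.5 and 44.6 CPM) overlapped at the top at E14.5, and Schwann-like cells followed at 8.3 to 19.3 CPM. At E16.5 follicle-like cells led with 45.0 and 50.6 CPM, before Schwann-like cells at 32.9 to 37.7 CPM, basal-like cells at 27.7 and 28.1 CPM and differentiated-like cells at 29.1 and 26.2 CPM. At P0 follicle-like cells (24.8 and 21.9 CPM) stood just above basal-like cells (19.6 and 19.4 CPM). Fibroblast-like cells had 3.997 and 4.29 CPM at E14.5, a log2 difference from basal-like cells of -3.57 ± 0.16 (adjusted p = 3.12e-17), and 6.89 and 8.86 CPM at E16.5, where the difference was -1.88 ± 0.13.

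Vangl1 and Vangl2 encode multi-pass membrane proteins that recruit PRICKLE. Vangl1 (ENSMUSG00000027860, chr3:102153583-102204693, minus strand) was highest in basal-like cells at E14.5 (21.0 and 26.0 CPM), and at E16.5 follicle-like cells (28.2 and 29.0 CPM) and basal-like cells (27.9 and 26.5 CPM) lay close together. Vangl2 (ENSMUSG00000026556, chr1:172000960-172028444, minus strand) leaned to the hair follicle from E16.5, the first age at which that class was named. It then held 63.2 and 74.4 CPM in follicle-like cells against 47.2 and 45.8 CPM in basal-like cells. At E14.5 it held 43.0 and 46.1 CPM in differentiated-like cells and 34.4 and 40.8 CPM in basal-like cells, and the Schwann-like libraries (34.5 and 50.8 CPM) overlapped both. At P0 follicle-like cells held 122 and 104 CPM of Vangl2 against 78.5 and 70.1 CPM, a log2 difference within library of 0.50 ± 0.07 (adjusted p = 3.27e-07). Vangl1 went the other way at P0, with 52.7 and 49.6 CPM in follicle-like cells against 70.9 and 58.1 CPM in basal-like cells (-0.44 ± 0.07, adjusted p = 5e-06).

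Ptk7 and Prickle1 had their highest mean in fibroblast-like cells before birth. Ptk7, a receptor-like protein with an inactive kinase domain (ENSMUSG00000023972, chr17:46564471-46629504, minus strand), held 163 and 156 CPM in fibroblast-like cells at E14.5 and 154 and 162 CPM at E16.5, against 47.3 and 37.8 CPM and 39.8 and 36.6 CPM in basal-like cells. Prickle1, the cytoplasmic partner of VANGL2 (ENSMUSG00000036158, chr15:93499114-93595891, minus strand), held 31.2 and 30.8 CPM in fibroblast-like cells at E14.5 and 27.3 and 29.95 CPM at E16.5. Basal-like cells had 9.56 and 9.98 CPM and 6.86 and 9.66 CPM of Prickle1 at these ages. The log2 difference between fibroblast-like and basal-like cells was 1.84 ± 0.11 for Ptk7 and 1.57 ± 0.18 for Prickle1 at E14.5, and 2.00 ± 0.09 and 1.74 ± 0.14 at E16.5.

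The remaining genes peaked outside the epithelium or were broad. Fzd3, the Frizzled receptor known from axon guidance (ENSMUSG00000007989, chr14:65192449-65262463, minus strand), was highest in Schwann-like cells, at 24.9 to 35.5 CPM at E14.5 and 34.6 to 39.2 CPM at E16.5, against 7.65 and 10.3 CPM and 9.196 and 7.50 CPM in basal-like cells. Scrib (ENSMUSG00000022568, chr15:76047158-76069784, minus strand) led in muscle-like cells with 62.4 to 65.8 CPM at E14.5 and 57.6 to 62.5 CPM at E16.5, and basal-like cells held 14.3 and 15.1 CPM and 19.2 and 18.7 CPM. Rhoa (ENSMUSG00000007815, chr9:108306129-108337934, plus strand) lay between 235 and 368 CPM in WT IFE cells and was highest in endothelial-like cells, at 571 to 586 CPM at E14.5. In the whole comparison of fibroblast-like with basal-like cells 9 of the 10 genes passed the test at E14.5 and 8 at E16.5. Of all genes tested 57.4% and 63.4% did. Nothing particular to the 10 is read from these counts, and their directions and sizes were not compared with those of all genes. Between follicle-like and basal-like cells 6 passed at E16.5 (21.2% of all genes) and 5 at P0 (52.3%), with Celsr1 the furthest below basal-like cells at each age (log2 difference -1.75 ± 0.15 and -2.21 ± 0.08). At E16.5 the count was 4 without the first WT library and 1, Celsr1, without the second. Ptk7 (0.29, adjusted p = 0.33, and 0.34, adjusted p = 0.221) and Rhoa (-0.24, adjusted p = 0.232, and -0.25, adjusted p = 0.227) were lost without either, and Vangl2 (0.23, adjusted p = 0.472), Fzd6 (-0.60, adjusted p = 0.0939) and Arhgef19 (0.51, adjusted p = 0.103) without the second. At P0 Fzd3 was lost without the first (0.26, adjusted p = 0.433) or the second (0.52, adjusted p = 0.0657).

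**Figure D1:**
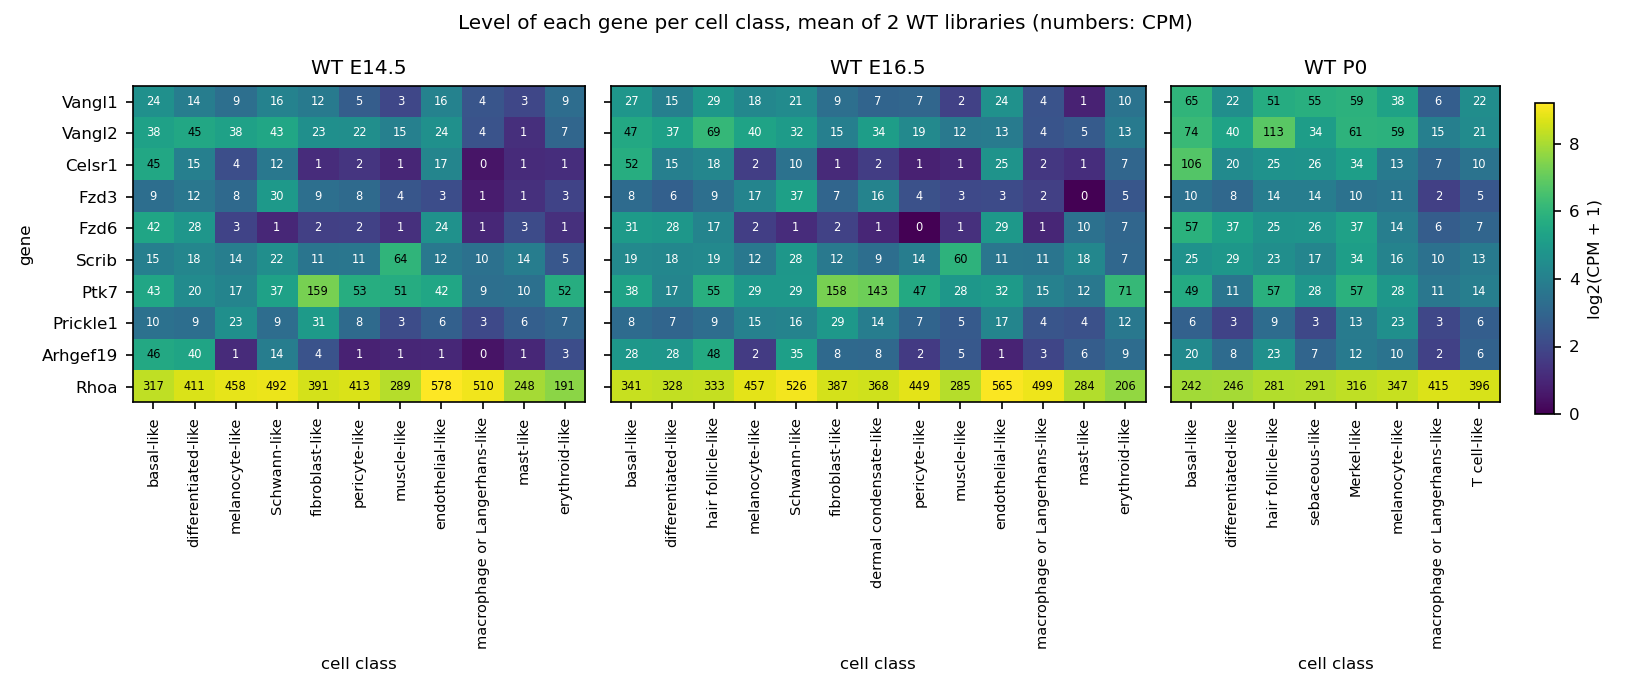
Mean CPM of each gene (rows) in each cell class (columns) of WT skin at each age, with colour giving log2(CPM + 1) and the printed number the mean CPM of 2 libraries. Celsr1 and Fzd6 are at their highest mean in basal-like cells at each age, Ptk7 and Prickle1 in fibroblast-like cells before birth, as are Fzd3 in Schwann-like and Scrib in muscle-like cells.

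Between E14.5 and E16.5, both from whole skin, Arhgef19 was the gene of the 10 that changed in WT IFE cells. It fell from 38.2 and 47.8 CPM to 28.3 and 27.2 CPM, without overlap, by a log2 change of -0.51 ± 0.14 (edgeR quasi-likelihood test, adjusted p = 0.0215), where 19% of 13177 genes changed. The call held in 9 of 13 alternative analyses and ended without the second WT library at E14.5 (-0.33, adjusted p = 0.27) or without the first (-0.52, adjusted p = 0.0916) or second (-0.48, adjusted p = 0.122) at E16.5. In basal-like cells alone Arhgef19 fell by 0.62 ± 0.14 (adjusted p = 0.00624) and Vangl2 rose from 34.4 and 40.8 CPM to 47.2 and 45.8 CPM (0.41 ± 0.13, adjusted p = 0.0459), where 16.7% of genes changed. No gene of the 10 passed in differentiated-like cells by edgeR, where 19.2% of genes passed, and 1 was at an unadjusted p under 0.05, as were 3723 of all 11262 genes.

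Between E16.5 and P0 Vangl1, Vangl2, Celsr1, Fzd6 and Scrib rose and Arhgef19, Rhoa and Prickle1 fell, with the changes of preparation and of sex in between. In WT IFE cells 8 of 10 passed the test, where 59.3% of all genes did. Vangl1 rose from 22.2 and 20.8 CPM to 46.6 and 36.4 CPM (log2 change 1.08 ± 0.17, adjusted p = 0.000279), and Celsr1 from 35.0 and 34.7 CPM to 63.7 and 54.3 CPM (0.89 ± 0.18, adjusted p = 0.00113). The ages did not overlap for either gene. Fzd6 rose by 0.75 ± 0.15, Scrib by 0.67 ± 0.13 and Vangl2 by 0.53 ± 0.10. Arhgef19 went from 28.3 and 27.2 CPM to 13.003 and 14.02 CPM, which was a fall of 0.91 ± 0.14 (adjusted p = 0.000161). Rhoa fell from 337 and 332 CPM to 235 and 254 CPM (-0.32 ± 0.10, adjusted p = 0.0144) and Prickle1 from 7.53 and 7.67 CPM to 4.31 and 4.26 CPM (-0.70 ± 0.27, adjusted p = 0.0458). The calls of Rhoa and Prickle1 held in 8 and 4 of 13 alternatives, those of the other 6 in all 13. Prickle1 was lost without any 1 of the 4 libraries, with adjusted p from 0.108 to 0.146, and Rhoa without either E16.5 library (-0.31, adjusted p = 0.071, and -0.30, adjusted p = 0.0737) or the first P0 library (-0.24, adjusted p = 0.0768). In basal-like cells the same comparison gave rises of Vangl1 (1.24 ± 0.15), Celsr1 (1.01 ± 0.15), Fzd6 (0.87 ± 0.16), Vangl2 (0.67 ± 0.12), Scrib (0.38 ± 0.15) and Ptk7 (0.34 ± 0.14) and falls of Arhgef19 (-0.52 ± 0.14) and Rhoa (-0.50 ± 0.10), where 62% of all genes passed. The earlier WT library at P0 held 42.9 CPM of Vangl1, 75.2 of Celsr1, 40.7 of Vangl2, 21.2 of Fzd6 and 16.7 of Arhgef19 in basal-like cells. Its Vangl1 and Celsr1 were above and its Arhgef19 below both E16.5 libraries, while its Vangl2 and Fzd6 were below them and its Scrib (19.2 CPM) was level with them (19.2 and 18.7 CPM), so that for Vangl2, Fzd6 and Scrib the difference between WT libraries at P0 is as large as the change with age.

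Within a library at P0, the fit gave lower Celsr1, Ptk7, Vangl1, Prickle1, Arhgef19 and Vangl2 in differentiated-like than in basal-like cells of WT. It gave higher Scrib and Rhoa. In WT at P0 Celsr1 went from 106 CPM in basal-like cells of each library to 22.4 and 18.4 CPM (log2 difference -1.97 ± 0.14, adjusted p = 3.95e-10) and Ptk7 from 54.4 and 43.2 CPM to 13.6 and 7.98 CPM (-1.78 ± 0.18, adjusted p = 5.73e-08). Vangl1 was lower by 1.11 ± 0.15 on the log2 scale, and Prickle1, Arhgef19 and Vangl2 were lower by 0.86 ± 0.32, 0.78 ± 0.16 and 0.48 ± 0.11. Scrib and Rhoa were the genes that were higher in the fit, by 0.63 ± 0.12 (adjusted p = 0.00015) and 0.44 ± 0.10 (adjusted p = 0.00102). The fit carries the TMM scaling, which CPM does not. In CPM Scrib was level between the classes in the first library and higher in differentiated-like cells of the second. Rhoa in basal-like cells lay close to its CPM over all IFE cells in both libraries. In all, 8 of 10 passed, where 59.5% of genes did. Prickle1 was the call that 1 library decided, with -0.91 (adjusted p = 0.103) without the first library and -0.79 (adjusted p = 0.198) without the second.

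The same direction was present before birth for Celsr1, Ptk7 and Vangl1. In WT at E14.5 these 3 were lower in differentiated-like cells by 1.53 ± 0.21, 0.94 ± 0.22 and 0.74 ± 0.26, and at E16.5 by 1.66 ± 0.16, 1.01 ± 0.17 and 0.66 ± 0.18. Fzd6 was lower (-0.56 ± 0.17) and Rhoa higher (0.46 ± 0.11) at E14.5, which makes 5 of 10 genes at E14.5 (30.4% of all genes) and 3 at E16.5 (48.1%). At E14.5 the calls of Vangl1 (-0.42, adjusted p = 0.593) and Fzd6 (-0.25, adjusted p = 0.619) ended without the second library and that of Ptk7 (-0.85, adjusted p = 0.0586) without the first, and that of Rhoa without either (0.39, adjusted p = 0.108, and 0.45, adjusted p = 0.089). Arhgef19 did not pass at either age, with 35.5 and 44.6 CPM in differentiated-like against 41.1 and 51.1 CPM in basal-like cells at E14.5.

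In Grhl3-/- skin Celsr1 and Ptk7 were again lower in differentiated-like cells at each age, Celsr1 by 1.32 ± 0.16, 1.31 ± 0.23 and 1.27 ± 0.16 at E14.5, E16.5 and P0 and Ptk7 by 0.47 ± 0.17, 0.81 ± 0.27 and 0.88 ± 0.21. In all 5 genes passed at E14.5 (35.7% of all genes), 2 at E16.5 (26%) and 6 at P0 (35%). At E14.5 the other 3 were higher in differentiated-like cells, Fzd3 by 0.62 ± 0.19, Arhgef19 by 0.45 ± 0.12 and Rhoa by 0.31 ± 0.10. Without either Grhl3-/- library Celsr1 was the gene of the 10 that still passed at E14.5. Fzd3 was then at 0.54 (adjusted p = 0.198) without the first and 0.77 (adjusted p = 0.252) without the second, Arhgef19 at 0.40 (adjusted p = 0.0854) and 0.46 (adjusted p = 0.167), and Rhoa at 0.33 (adjusted p = 0.157) and 0.24 (adjusted p = 0.404). Ptk7 was at -0.57 (adjusted p = 0.058) without the first and -0.35 (adjusted p = 0.506) without the second, and at E16.5 both Celsr1 (-0.98, adjusted p = 0.0557) and Ptk7 (-0.51, adjusted p = 0.454) without the first. At P0 Vangl1 (-0.89 ± 0.18) and Prickle1 (-1.03 ± 0.36) were lower and Fzd6 and Rhoa (0.29 ± 0.10) higher. The count of 6 was 5 without the first Grhl3-/- library and 3 without the second. Vangl1 ran from -1.75 without the first to -0.57 without the second and passed in both, Prickle1 was lost without either (-1.02, adjusted p = 0.317, and -1.04, adjusted p = 0.0599), and Rhoa without the second (0.10, adjusted p = 0.601). The difference of this step between genotypes was tested directly. At P0 it passed for 3 genes, where 10.9% of all genes passed. Celsr1 fell less across the step in Grhl3-/- (difference 0.70 ± 0.21, adjusted p = 0.0421). Fzd6 was higher in differentiated-like than in basal-like cells of Grhl3-/- (0.42 ± 0.16, adjusted p = 0.0449) and did not pass in WT, a difference of 0.64 ± 0.20 (adjusted p = 0.0422). Scrib, which was higher in differentiated-like cells of WT in the fit, did not pass in Grhl3-/-, a difference of -0.88 ± 0.21 (adjusted p = 0.00983). In CPM Scrib was level between these classes in the earlier WT library, which was not in the fit. Ptk7 had a difference of 0.90 with a 95% interval from 0.29 to 1.51 and missed the threshold (adjusted p = 0.0533). With DESeq2 none of these differences passed, at 0.70 (adjusted p = 0.267) for Celsr1, 0.68 (adjusted p = 0.196) for Fzd6 and -0.83 (adjusted p = 0.183) for Scrib, and leaving out a library gave between 0 and 4. The difference of Fzd6 was lost without any 1 of the 4 libraries (0.61 to 0.67), and its step in Grhl3-/- without either of the 2 (0.45, adjusted p = 0.214, and 0.40, adjusted p = 0.146). The differences of Celsr1 and Scrib were lost without the second WT library (0.49, adjusted p = 0.278, and -0.74, adjusted p = 0.0759) or the first Grhl3-/- library (0.45, adjusted p = 0.483, and -0.75, adjusted p = 0.201). Ptk7 passed without the first WT library (1.19, adjusted p = 0.0432) or the second Grhl3-/- library (1.12, adjusted p = 0.0125). At E14.5 and E16.5 none passed by edgeR or DESeq2, where 0.881% and 0.64% of all genes passed. At an unadjusted p under 0.05 there were 1 and 0 of the 10, and 1403 and 1115 of all 12492 genes. The differentiated-like class was not alike in the genotypes at P0. It held 3437 to 3547 CPM of the 6 basal markers in WT and 8746 to 24772 CPM in Grhl3-/-, and a cornified cluster was 19.9% and 18.2% of it in WT and 2.84% and 13.1% in Grhl3-/-, whose part in these differences was not tested.

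**Figure D2:**
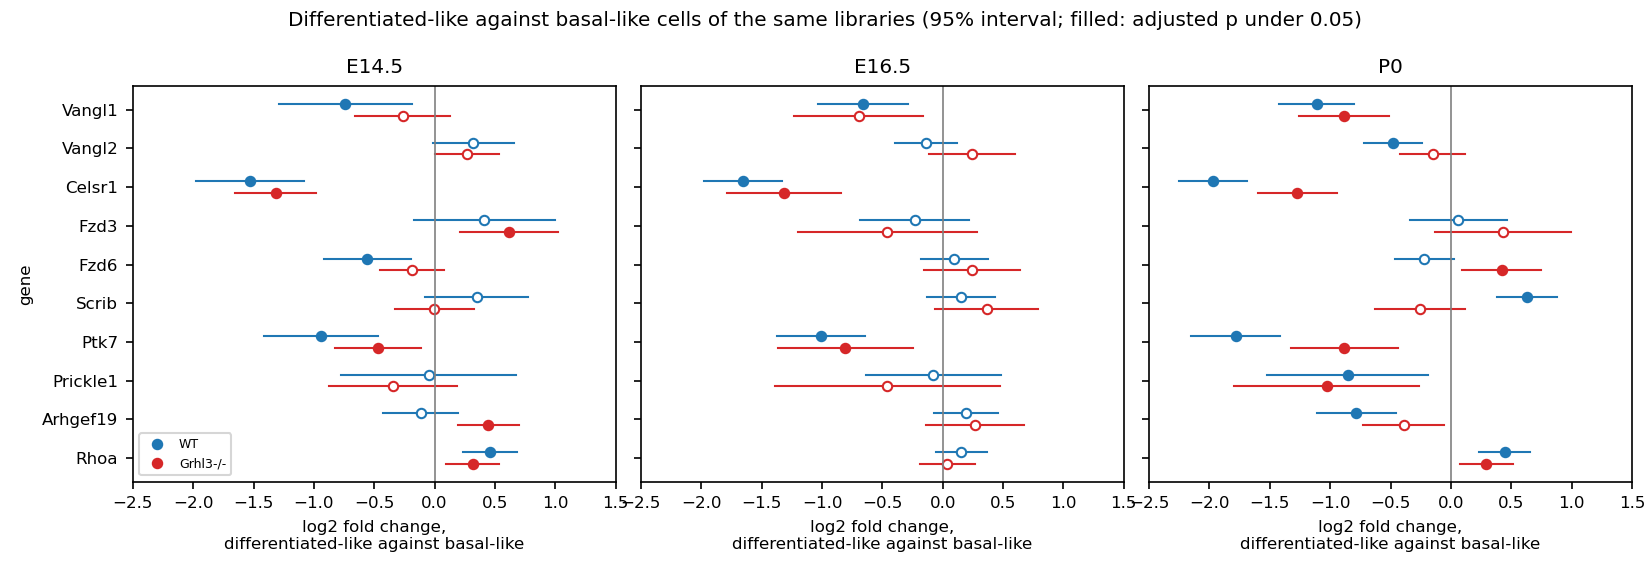
Log2 difference between differentiated-like and basal-like cells of the same libraries for each gene in both genotypes and at each age, with points for the fitted value, filled where it passed the test, and bars for its 95% interval. Celsr1 and Ptk7 lie below 0 in each group, and Scrib at P0 lies above 0 in WT (0.63) and not in Grhl3-/-.

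Between Grhl3-/- and WT at P0, 5 of the 10 genes passed the test in basal-like cells, where 38% of all genes did. Before birth none passed in epidermal cells, where 0.00808% to 2.47% of all genes did, so the counts are near the share of all genes and nothing particular to these 10 is read from them. In basal-like cells at P0 Arhgef19 held 19.6 and 19.4 CPM in WT and 30.3 and 31.5 CPM in Grhl3-/-. The groups did not overlap, the earlier WT library (16.7 CPM) was on the WT side, and Arhgef19 rose by 0.64 ± 0.14 (log2, SE; edgeR quasi-likelihood test, adjusted p = 0.00156). Fzd6 went the opposite way and fell from 63.0 and 51.6 CPM to 27.5 and 24.1 CPM (-1.14 ± 0.16, adjusted p = 3.26e-05). The earlier WT library had 21.2 CPM of Fzd6, below both Grhl3-/- libraries, so the fall of Fzd6 rests on the 2 WT libraries prepared with the Grhl3-/- ones.

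Smaller falls in basal-like cells at P0 were those of Fzd3, Scrib and Ptk7. Fzd3 had 10.9 and 8.88 CPM in WT and 6.57 and 6.58 CPM in Grhl3-/- (-0.59 ± 0.22, adjusted p = 0.0383). Scrib had 26.3 and 23.3 CPM against 19.1 and 16.8 CPM (-0.46 ± 0.14, adjusted p = 0.0194). Ptk7 had 54.4 and 43.2 CPM against 35.2 and 39.3 CPM (-0.41 ± 0.14, adjusted p = 0.0246). The groups did not overlap in any of these, with the earlier WT library at 10.4, 19.2 and 41.3 CPM, the last 2 of them close above the higher Grhl3-/- library. These calls held in 5, 8 and 7 of 15 alternatives, against 14 of 15 for Arhgef19 and Fzd6. Without the first WT library all 3 ended, at -0.49 (adjusted p = 0.194), -0.41 (adjusted p = 0.0922) and -0.29 (adjusted p = 0.183), and without the second Grhl3-/- library likewise, at -0.54 (adjusted p = 0.11), -0.33 (adjusted p = 0.127) and -0.42 (adjusted p = 0.0568). Without the first Grhl3-/- library Fzd3 (-0.67, adjusted p = 0.089) and Ptk7 (-0.40, adjusted p = 0.096) ended.

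Together 5 of the 10 genes passed in basal-like cells at P0, 1 of them higher (19% of all genes were) and 4 lower (19%), where 38% of all 12380 genes passed, and the median change of the 10 was -0.20 beside 0 for all genes. The others were Rhoa (237 and 248 CPM in WT, 275 and 320 CPM in Grhl3-/-, 0.27 ± 0.10, adjusted p = 0.0515), Prickle1 (6.13 and 6.52 against 11.3 and 6.58 CPM, 0.57 ± 0.28, adjusted p = 0.119), Celsr1 (106 and 106 against 102 and 75.9 CPM, -0.26 ± 0.15), Vangl1 (70.9 and 58.1 against 64.5 and 52.3 CPM, -0.14 ± 0.14) and Vangl2 (78.5 and 70.1 against 66.3 and 76.4 CPM, -0.09 ± 0.11). The 95% intervals of the changes ran from -0.57 to 0.06 for Celsr1, from -0.44 to 0.16 for Vangl1 and from -0.33 to 0.15 for Vangl2. Celsr1 passed without the first Grhl3-/- library (-0.57, adjusted p = 0.00695), Prickle1 without the second (0.88, adjusted p = 0.0135) and Rhoa without the second WT library (0.33, adjusted p = 0.0435). With the earlier library counted as another WT library none of the 10 passed in edgeR, and 237 of all genes did in place of 4708. Arhgef19 then had a change of 0.68 (adjusted p = 0.061) and Fzd6 of -0.83 (adjusted p = 0.229).

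**Figure D3:**
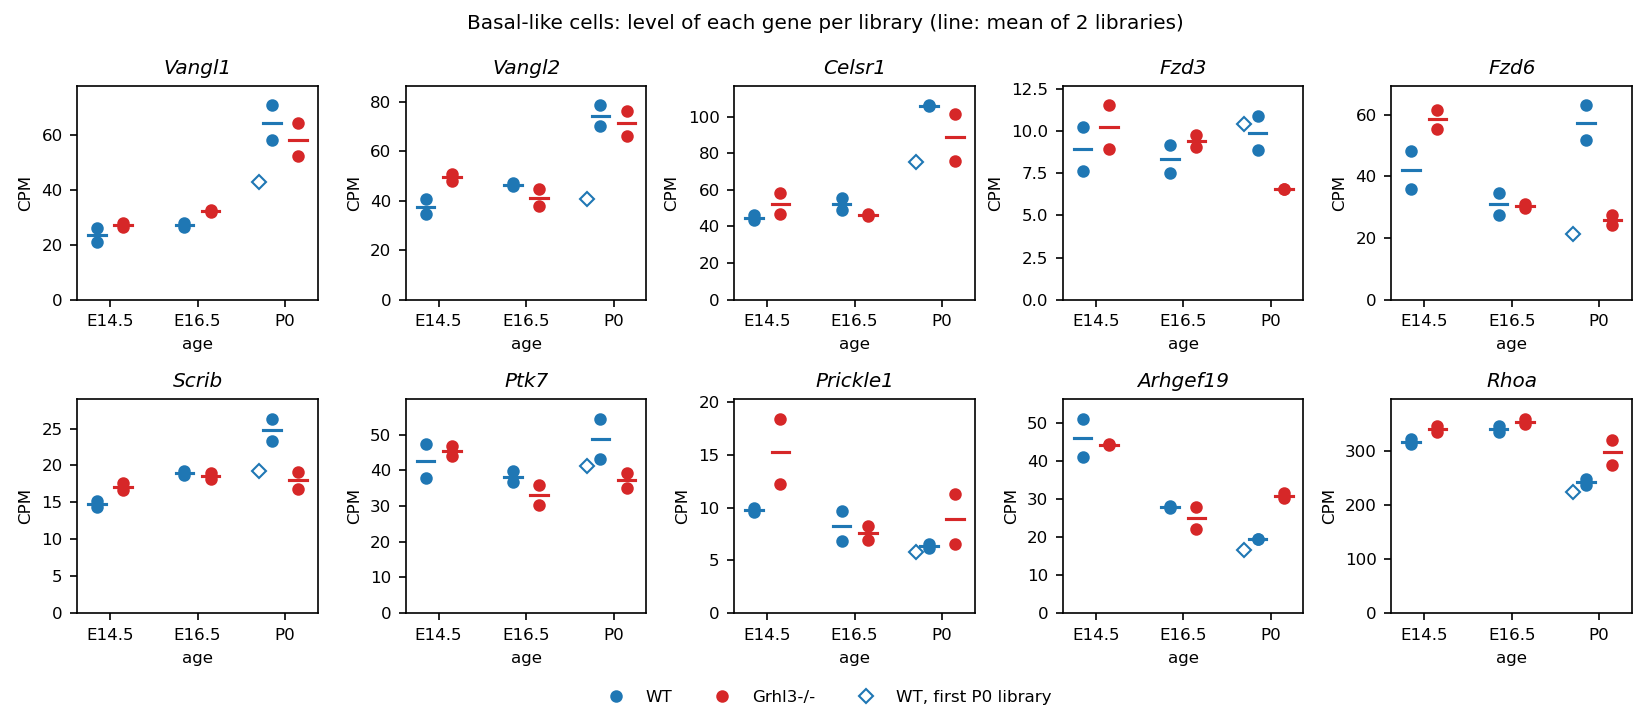
CPM of each gene in basal-like cells of each library, by age, with WT and Grhl3-/- libraries as separate points and the earlier WT library at P0 marked apart. At P0 the Grhl3-/- points of Arhgef19 lie above all 3 WT points, and those of Fzd6 lie below 2 WT points and above the earlier one.

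Read per cell, Arhgef19 gave the same order. After each basal-like cell was thinned to 3000 UMIs, 4.94% (95% exact binomial interval 3.12% to 7.39%) and 7.69% (5.29% to 10.7%) of WT cells at P0 held an Arhgef19 UMI, against 8.45% (7.07% to 9.99%) and 11.8% (9.17% to 14.8%) of Grhl3-/- cells and 4.41% of the cells of the earlier library. Intervals cover counting error only, and those of the second WT and the first Grhl3-/- library overlap. Without thinning the shares were 24.0% and 26.1% in WT and 27.5% and 27.3% in Grhl3-/-, at medians of 10842 and 12360 UMIs per cell against 8116.5 and 7762. Macrophage-like cells, which should lack the gene, held an Arhgef19 UMI in 0 of 421 thinned cells of the first WT library. This allows a share of up to 0.713% (3 counts of 421). In the other 3 libraries the share was 1.01% to 1.44%, and all were below the basal-like shares. Summed, these cells held 2.33 to 2.51 CPM of Arhgef19 in WT and 4.59 to 6.09 CPM in Grhl3-/- at P0. In macrophage-like cells this background was thus also higher in Grhl3-/-. T-cell-like cells at P0 went the other way, with 5.96 to 6.81 CPM of Arhgef19 in WT and 2.27 to 4.79 CPM in Grhl3-/-. The part of the background in the basal-like rise was not tested.

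In differentiated-like cells at P0 Scrib and Arhgef19 changed, 2 of 10 genes where 29.2% of all genes passed. Scrib had 26.5 and 30.7 CPM in WT and 13.8 and 11.6 CPM in Grhl3-/-, and it fell by 1.28 ± 0.18 (adjusted p = 0.000564), with the earlier WT library between the groups at 19.7 CPM. Arhgef19 had 6.53 and 10.3 CPM in WT and 19.3 and 20.4 CPM in Grhl3-/-, and rose by 1.09 ± 0.23 (adjusted p = 0.00498), with the earlier library again between them at 13.5 CPM. The 6 basal markers, which mark the class in which WT holds more Arhgef19, summed to 3437 to 3547 CPM in these cells of WT and 8746 to 24772 CPM of Grhl3-/-, and their part in the rise was not tested. The Scrib call held in all 16 alternatives and that of Arhgef19 in 13 of 16, with changes of Arhgef19 between 0.59 and 1.42. The Arhgef19 call ended at equal total UMIs (0.59, adjusted p = 0.169), in a fit of only the 2 groups (1.11, adjusted p = 0.0532) and with the earlier library counted as WT (0.91, adjusted p = 0.0608). Fzd6 had 38.6 and 34.5 CPM against 32.8 and 24.7 CPM (-0.46 ± 0.20, adjusted p = 0.11), and passed without the cornified cluster (-0.68, adjusted p = 0.0314). Celsr1, Vangl1 and Vangl2 lay far apart in the Grhl3-/- libraries, at 41.1 and 19.9, 39.4 and 11.6, and 62.8 and 40.7 CPM. Vangl1 thus turned with the library left out, from -0.98 (adjusted p = 0.0198) without the first Grhl3-/- library to 0.64 (adjusted p = 0.0266) without the second. Without the second, Vangl2 (0.47, adjusted p = 0.0369) and Celsr1 (0.82, adjusted p = 0.0251) passed too, and without the first, Rhoa did (0.40, adjusted p = 0.0442). With the earlier library counted as another WT library Scrib alone passed (-1.09).

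**Figure D4:**
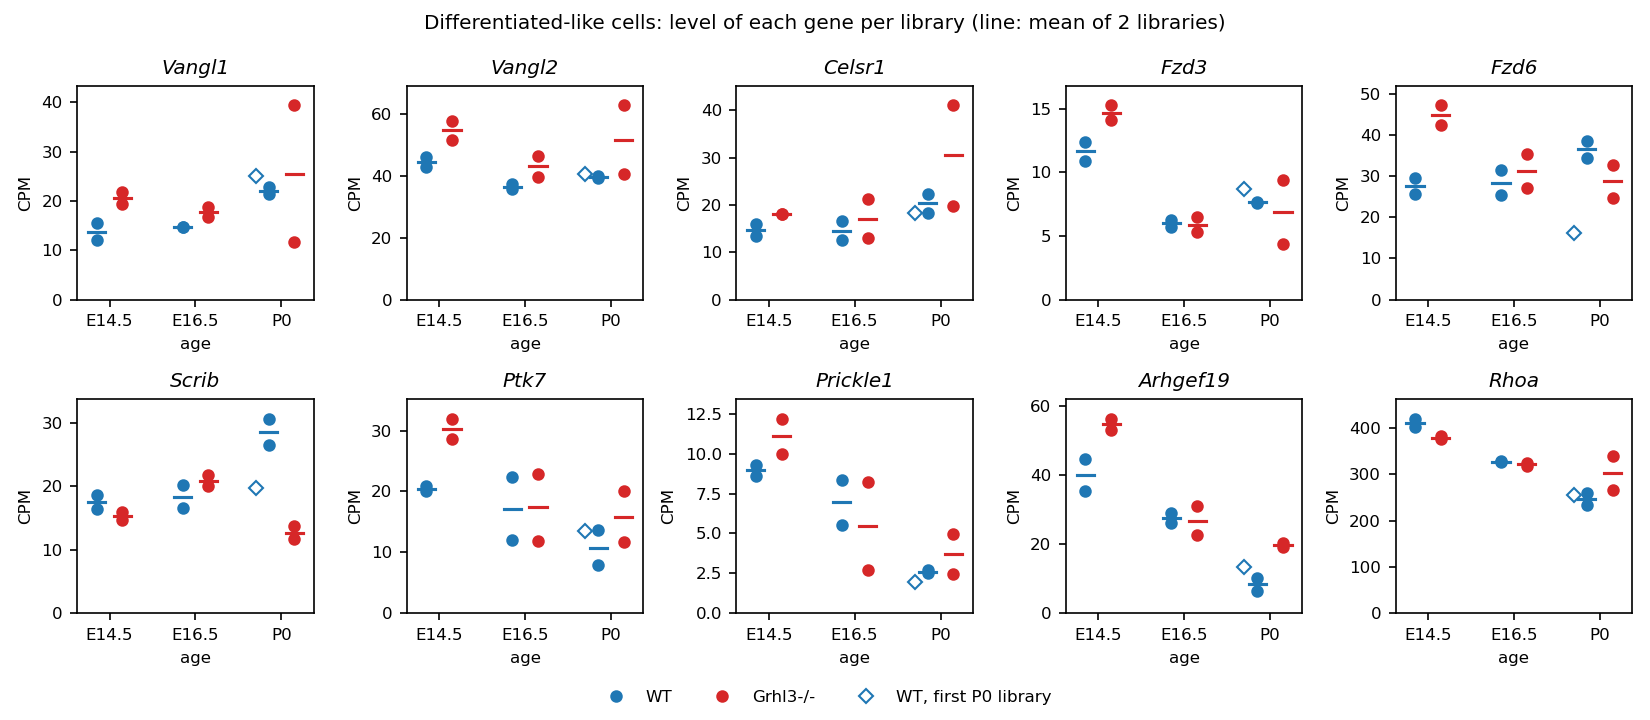
CPM of each gene in differentiated-like cells of each library, by age, with WT and Grhl3-/- libraries as separate points and the earlier WT library at P0 marked apart. At P0 Scrib is lower and Arhgef19 higher in both Grhl3-/- libraries than in all WT libraries, and the Grhl3-/- libraries of Celsr1 and Vangl1 lie far from each other.

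Over all IFE cells at P0, 5 of 10 genes passed where 41.9% of 13177 genes did, 2 higher (21.1% of all genes were) and 3 lower (20.8%). Arhgef19 had 13.003 and 14.02 CPM in WT, 28.4 and 28.6 CPM in Grhl3-/- and 15.3 CPM in the earlier WT library. It rose by 0.95 ± 0.14 (adjusted p = 0.000257), a call that held in all 15 alternatives with changes between 0.70 and 1.29. Scrib (26.4 and 27.7 against 18.2 and 15.4 CPM, earlier library 19.5 CPM) fell by 0.79 ± 0.13 (adjusted p = 0.000662), also in all 15. Fzd6 (50.7 and 41.5 against 28.4 and 24.3 CPM) fell by 0.91 ± 0.15 (adjusted p = 0.000692), with the earlier library at 19.0 CPM, below the Grhl3-/- ones. Fzd3 (9.23 and 8.18 against 7.06 and 6.00 CPM, -0.51 ± 0.17, adjusted p = 0.0275) and Prickle1 (4.31 and 4.26 against 10.2 and 5.49 CPM, 0.81 ± 0.28, adjusted p = 0.0333) held in 7 and 5 of 15. Fzd3 was lost without the first WT library (-0.45, adjusted p = 0.103) or the second Grhl3-/- library (-0.39, adjusted p = 0.134), and Prickle1 without either WT library (0.80, adjusted p = 0.102, and 0.83, adjusted p = 0.0989) or the first Grhl3-/- library (0.19, adjusted p = 0.632). Vangl1 (0.45, adjusted p = 0.0272) and Celsr1 (0.54, adjusted p = 0.00868) passed without the second Grhl3-/- library. With the earlier library counted as another WT library Arhgef19 (0.86) and Scrib (-0.69) passed, and Fzd6 did not (-0.64, adjusted p = 0.238). The IFE value mixes the level in a class with the share of the class. WT libraries had 445 and 403 basal-like and 604 and 659 differentiated-like cells at P0, and Grhl3-/- libraries 1468 and 535, and 352 and 214. Unnamed cells with the basal or the differentiated list highest, given above, are in neither class, so these are not shares of the whole epidermis. Prickle1, which is higher in basal-like than in differentiated-like cells, passed in the IFE and in neither class by itself. The 7 fibroblast markers summed to 221 to 268 CPM in IFE cells of WT and 523 to 599 CPM of Grhl3-/- at P0, against 17923 to 35960 CPM in fibroblast-like cells before birth, and their part in the rise of Prickle1, a gene high in those cells, was not tested.

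Before birth none of the 10 passed between genotypes in IFE, basal-like or differentiated-like cells by edgeR. In IFE cells 0.334% of genes passed at E14.5 and 1.37% at E16.5, in basal-like cells 0.00808% and 0.541%, and in differentiated-like cells 0.977% and 2.47%. At an unadjusted p under 0.05 there were 2 genes of the 10 in each of the 3 at E14.5, beside 1125 of all 13177 genes in IFE, 460 of 12380 in basal-like and 1545 of 11262 in differentiated-like cells. At E16.5 there were none, beside 1759, 1292 and 1703 of all genes, and DESeq2 also gave 0 calls of the 10 throughout. Arhgef19 in basal-like cells had 41.1 and 51.1 CPM in WT against 44.4 and 44.3 CPM in Grhl3-/- at E14.5 (-0.12, 95% interval -0.43 to 0.18) and 27.7 and 28.1 against 22.3 and 27.9 CPM at E16.5 (-0.24, -0.58 to 0.10). Fzd6 at E14.5 had 35.8 and 48.1 against 61.5 and 55.4 CPM in basal-like cells (0.39, 0.02 to 0.76, adjusted p = 1) and 29.7 and 25.6 against 42.6 and 47.2 CPM in differentiated-like cells (0.71, 0.26 to 1.15, adjusted p = 0.138), so its higher values lay in Grhl3-/- at this age.

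The change between genotypes was also compared between ages, with the changes of preparation and of the balance of the sexes in between. In IFE cells it differed between P0 and E16.5 for 3 of the 10 genes, where 20.3% of all genes differed, and between P0 and E14.5 for 4 (25.5%). Arhgef19 (0.75 with P0 against E14.5), Scrib (-0.77) and Fzd6 (-1.45) were among them in both comparisons. In basal-like cells Arhgef19 was higher (11% of all genes were) and Fzd6 lower (5.57%) with P0 against E16.5, and both again differed with P0 against E14.5 (18.4%). In differentiated-like cells 2 genes differed from E16.5 (5.82%) and 2 from E14.5 (14.3%), Scrib in both cases, and in follicle-like cells Vangl1 did from E16.5 (-1.06, where 9.1% of all genes did).

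In follicle-like cells at P0 Vangl1, Fzd3, Fzd6 and Ptk7 fell and Rhoa rose in Grhl3-/-. Vangl1 had 52.7 and 49.6 CPM in WT, 27.6 and 19.4 CPM in Grhl3-/- and 40.2 CPM in the earlier WT library, and fell by 1.03 ± 0.16 (adjusted p = 0.000427). Fzd3 (16.45 and 11.7 against 7.22 and 6.82 CPM, earlier library 16.4 CPM) fell by 0.90 ± 0.20 (adjusted p = 0.00402), and Fzd6 (26.2 and 24.1 against 14.4 and 11.1 CPM, earlier library 11.96 CPM) by 0.89 ± 0.18 (adjusted p = 0.00218). Vangl1 and Fzd3 had all 3 WT libraries above Grhl3-/-, while for Fzd6 the earlier library fell among the Grhl3-/- values. Ptk7 fell by 0.38 ± 0.12 (61.2 and 52.2 against 41.6 and 39.8 CPM, adjusted p = 0.0304) and Rhoa rose by 0.39 ± 0.10 (279 and 282 against 343 and 346 CPM, adjusted p = 0.00788). This made 5 of 10 genes where 33.5% of all genes passed, and the median change of the 10 was -0.17 beside -0.06 for all genes. Arhgef19 had 24.8 and 21.9 against 22.1 and 28.2 CPM there (0.20, 95% interval -0.09 to 0.50), and Scrib 23.4 and 21.7 against 20.6 and 21.8 CPM (0.01, -0.28 to 0.29). The calls of Vangl1 and Fzd6 held in 14 of 15 alternatives, those of Fzd3 and Rhoa in 12 and that of Ptk7 in 5. Fzd3 was lost without the first WT library (-0.65, adjusted p = 0.0507), Rhoa without the second Grhl3-/- library (0.38, adjusted p = 0.0534), and Ptk7 without the first WT library (-0.28, adjusted p = 0.155) or either Grhl3-/- library (-0.43, adjusted p = 0.0616, and -0.36, adjusted p = 0.135). With the earlier library counted as another WT library none of the 10 passed, and 43 of all genes did. Vangl1 was then at -0.91 (adjusted p = 0.142), Fzd3 at -0.97 (adjusted p = 0.143), Fzd6 at -0.61 (adjusted p = 0.505), Ptk7 at -0.29 (adjusted p = 0.552) and Rhoa at 0.41 (adjusted p = 0.265). The difference of these changes between follicle-like and IFE cells was not tested. The 16 follicle markers summed to 6758 to 7089 CPM in follicle-like cells of WT and 4218 to 4337 CPM of Grhl3-/-, whose part in these changes was not tested. At E16.5 none of the 10 passed in follicle-like cells by edgeR (0.117% of all genes) or DESeq2, and 0 were at an unadjusted p under 0.05, beside 669 of all 12826 genes.

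In fibroblast-like cells Ptk7 had 163 and 156 CPM in WT and 191 and 200 CPM in Grhl3-/- at E14.5, and rose by 0.28 ± 0.06 (adjusted p = 0.0452), the 1 gene of 10 where 3.94% of all genes passed. The call held in 6 of 14 alternatives. It ended without the second WT library (0.21, adjusted p = 0.148) and without the first (0.31, adjusted p = 0.128) or second (0.26, adjusted p = 0.18) Grhl3-/- library. At E16.5 Ptk7 had 154 and 162 against 163 and 155 CPM, and none of the 10 passed by edgeR or DESeq2, with Prickle1 (27.3 and 29.95 against 33.3 and 35.6 CPM, 0.28 ± 0.09, adjusted p = 0.257) alone at an unadjusted p under 0.05, as were 1460 of all 14000 genes (1.14% of all genes passed).

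Over all cells kept at P0, whatever their class, 2 of the 10 passed where 34.1% of all genes did. Fzd3 had 13.4 and 9.76 CPM in WT and 7.20 and 6.40 CPM in Grhl3-/- (-0.67 ± 0.17, adjusted p = 0.0129), and Rhoa had 281 and 299 CPM against 325 and 348 CPM (0.31 ± 0.07, adjusted p = 0.00923). Fzd3 was lost without the first WT library (-0.41, adjusted p = 0.0916) or the second Grhl3-/- library (-0.58, adjusted p = 0.0863), and Rhoa without the latter (0.27, adjusted p = 0.0606). Neither Arhgef19 nor Fzd6 passed in this sum, in which the classes have different shares in each library.

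**Figure D5:**
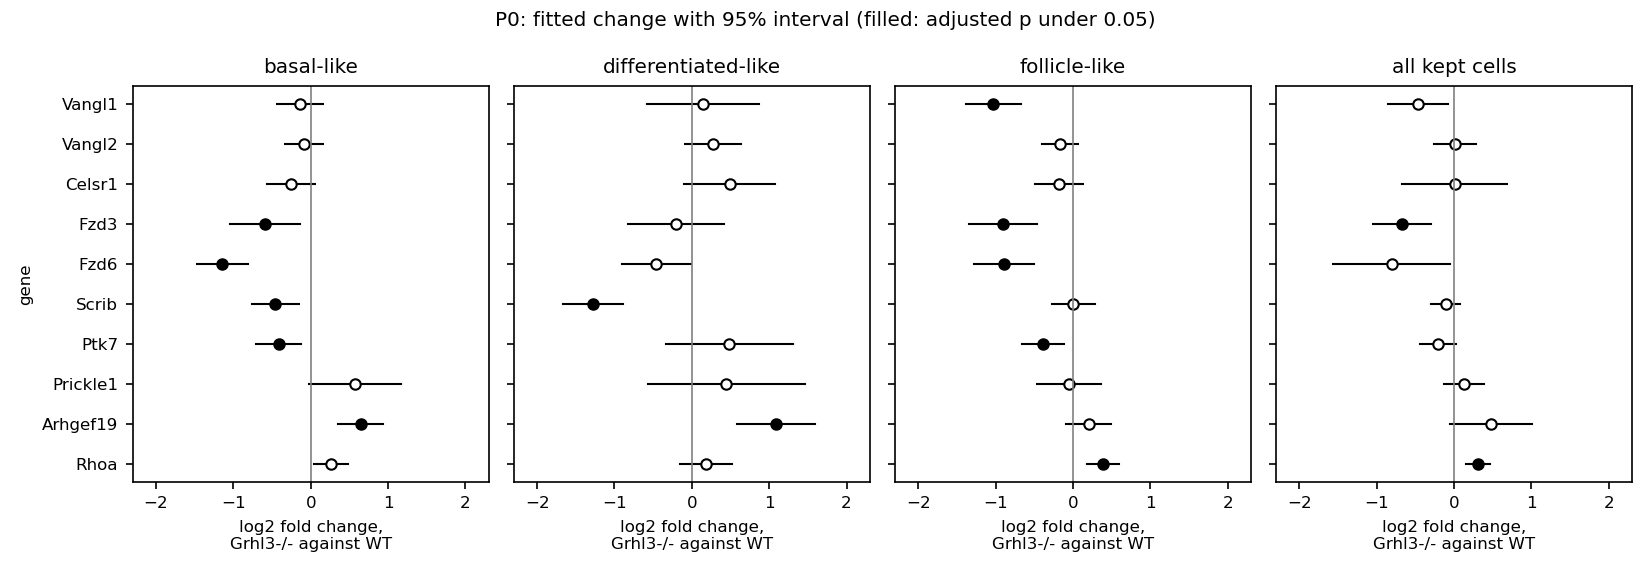
Fitted log2 change of each gene between Grhl3-/- and WT at P0 in basal-like, differentiated-like, follicle-like and all cells, with bars for the 95% interval and filled points past the threshold. Arhgef19 lies above 0 in basal-like (0.64) and differentiated-like cells (1.09), Fzd6 below 0 in basal-like (-1.14) and follicle-like cells (-0.89), and Vangl1 below 0 in follicle-like cells (-1.03).

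The other genes of the pathway moved both ways at P0. Of 33 further planar polarity genes 31 could be tested in IFE cells, and 4 were higher (21.1% of all genes were) and 7 lower (20.8%) in Grhl3-/-, with a median change of -0.20 beside 0.01 for all genes. Fjx1, a kinase of the Fat and Dachsous branch, rose by 1.37 ± 0.21, and Fuz, a planar polarity effector of ciliogenesis, rose by 1.07 ± 0.23. Llgl2, a basolateral polarity protein that acts with SCRIB, fell by 1.05 ± 0.22, and Dvl1, the adaptor downstream of Frizzled, by 0.89 ± 0.15. Wnt5a, a ligand of the pathway, had the largest change of the list (2.02 ± 0.48), from 0.606 and 0.284 CPM in WT to 1.73 and 2.298 CPM in Grhl3-/-. These are low levels that rest on few UMIs, and the fibroblast markers were higher in the same libraries as given above. In basal-like cells 3 were higher and 9 lower of 29 (19% of all genes each). In differentiated-like cells 1 was higher and 6 lower of 24 (14.3% and 14.9% of all genes were), among the latter Daam1, a formin that links DVL to RHOA (-1.34 ± 0.22), and Celsr2 (-0.88 ± 0.20).

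All 31 genes listed for the RhoA and actomyosin route and for wound closure could be tested, and 9 were higher and 5 lower in IFE cells of Grhl3-/- at P0, beside the same 21.1% and 20.8% of all genes, with a median change of 0.07. Rhoc, a close relative of RHOA, had 13.5 and 8.18 CPM in WT and 30.7 and 29.5 CPM in Grhl3-/-, a rise of 1.37 ± 0.20, and the earlier WT library had 11.5 CPM. Diaph1, the formin that RHOA activates, fell by 0.94 ± 0.16, and Jun rose by 1.04 ± 0.13. Cfl1, which severs actin filaments, rose by 0.84 ± 0.09, from 284 and 245 CPM to 505 and 524 CPM, but the earlier WT library stood at 709 CPM, above them. Myh10, a nonmuscle myosin heavy chain that fibroblasts express, rose by 1.86 ± 0.35 from 0.876 and 0.568 CPM to 2.26 and 3.83 CPM, also low levels. Rhoa itself had 235 and 254 CPM in WT IFE cells at P0 and a change of 0.16 with an interval from -0.06 to 0.37. At E16.5 the 1 gene of both lists that passed in IFE cells was Jun (-0.88 ± 0.13), where 1.37% of all genes passed. At E14.5 none passed by edgeR (0.334% of all genes), and 5 were at an unadjusted p under 0.05, as were 1125 of all 13177 genes. In follicle-like cells at P0 the planar polarity list had 2 higher and 2 lower and the RhoA list 5 higher and 9 lower (15.3% and 18.3% of all genes were), among them Myh10 (1.53 ± 0.18), Arhgef28 (-1.15 ± 0.20) and Ror1 (-1.10 ± 0.29), a receptor of WNT5A.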

How the data were processed

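Dorsal skin of 13 libraries was examined, 2 for each of the 6 groups of genotype and age and 1 earlier WT library at P0. The authors aligned reads to mm10 with Cell Ranger (1.3.1 in the submitters' processing notes, a later version in the methods) and deposited raw UMI counts per gene and barcode, whose totals ran from 49245953 to 107038146 per library. Barcodes with 600 to 4800 genes (at P0, 900 to 7700) and no more than 10% of UMIs from mitochondrial genes were kept. Doublets were kept, and the 5% with the highest doublet scores were removed as an alternative. Cells were clustered by age after integration of the libraries (Seurat 5.3.0, 3000 variable genes, 30 components, 20 neighbours, resolution 1), with the genes described here and the other pathway genes kept out of the clustering. Clusters were named from marker lists, with limits set after the scores were seen.

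The library was the unit of each test. Counts were summed per library and class (at least 20 cells), genes with low counts were removed by filterByExpr, and edgeR 4.0.16 (R 4.3.3, limma 3.58.1) was used with TMM scaling and the quasi-likelihood test. P-values were adjusted over all genes by Benjamini-Hochberg at a threshold of 0.05, and ± is the standard error of a fitted log2 change. One fit held the 12 replicated libraries. Comparisons of classes within a library carried the library as a block. The earlier library was not tested and entered as an alternative chosen after seeing the data. CPM was computed from the deposited counts, and for shares of cells with a UMI each cell was thinned to 3000 UMIs, intervals being exact Clopper-Pearson. Python 3.11.15 with numpy 2.4.6, scipy 1.17.1 and pandas 2.3.3 was used for sums and tables. The fit was tested on simulated counts with known fold changes and a fixed dispersion. The comparisons were genotypes at P0 in IFE cells, differentiated-like with basal-like cells of WT at P0, and fibroblast-like with basal-like cells of WT at E16.5. Of genes changed 1.5-fold, 30%, 24% and 18% were recovered, and of genes changed 2-fold, 88%, 76% and 86%. A gene that did not pass may therefore still have changed by 1.5-fold.

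Alternatives were DESeq2 1.42.0, RLE size factors, no filter on low counts, equal total UMIs, a 5% mitochondrial limit, no integration, resolution 0.5, only the 2 groups compared, a block for the replicate number and dropping each library in turn. By the naming rule all 10 genes are described, the largest called changes of the other lists are named, and each gene's most alike genes are given. The 10 genes and all lists were chosen with earlier results of these data known. Per the study's text the libraries of a group are biological replicates from littermates, so p-values measure the spread between these libraries. Positions are GENCODE M21 (GRCm38), and RefSeq promoter windows matched 5 of the 10 genes.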

Additional observations from a re-analysis of the deposited data

Results flagged for a closer look

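The change between Grhl3-/- and WT was compared between ages within the same fit, and the values in this section are differences of log2 changes that passed that test (edgeR quasi-likelihood, adjusted over all genes). P0 was separated epidermis and the earlier ages whole skin, so that age and preparation cannot be told apart in any of them. Sex was also balanced differently between genotypes before birth and at P0, as given above. With P0 against E16.5 in IFE cells, where 20.3% of all genes passed, the change of Arhgef19 was higher by 1.103 (adjusted p = 0.0032), and those of Fzd6 (-0.93, adjusted p = 0.0144) and Scrib (-0.84, adjusted p = 0.0125) were lower. With P0 against E14.5 (25.5% of all genes) the differences were 0.75 for Arhgef19, -1.45 for Fzd6, -0.77 for Scrib and -0.80 for Fzd3.

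In basal-like cells the differences were 0.89 for Arhgef19 and -1.04 for Fzd6 with P0 against E16.5 (11% of all genes were higher and 5.57% lower), and 0.77 and -1.53 with P0 against E14.5 (18.4%). In differentiated-like cells Scrib (-1.44) and Arhgef19 (1.20) differed with P0 against E16.5 (5.82%), and Fzd6 (-1.16) and Scrib (-1.08) with P0 against E14.5 (14.3%). Vangl1 was the gene of the 10 that differed in follicle-like cells, by -1.06 with P0 against E16.5 (adjusted p = 0.0443, 9.1% of all genes). Within libraries at P0, the step from basal-like to differentiated-like cells differed between genotypes for Celsr1 (0.70), Fzd6 (0.64) and Scrib (-0.88), where 10.9% of all genes passed. The earlier WT library at P0 is not in these fits, and its Fzd6 in basal-like cells (21.2 CPM) lay below both Grhl3-/- libraries.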

How the results depend on the processing

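Counts below are of the 10 genes past the threshold, with the reported count in brackets. The calls over all genes under the same alternative are given for some of them only, in the next paragraph. Nothing particular to the 10 is read from these counts or from those of leaving out a library. For IFE cells at P0 (5), DESeq2, equal total UMIs and a fit of only the 2 groups each gave 3, and the earlier library as WT gave 2. For basal-like cells at P0 (5) these were 2, 2, 2 and 0. For differentiated-like cells at P0 (2), a fit of the 2 groups and the earlier library as WT each gave 1. At E14.5, no filter gave 1 in IFE (0) and 1 in differentiated-like cells (0), and a fit of the 2 groups gave 1 and 3. WT IFE cells between E14.5 and E16.5 (1) gave 0 at equal UMIs and 2 with the 2 groups. All cells at E16.5 (0) gave 2 with DESeq2, and at P0 (2) 4 with DESeq2 and 1 with the earlier library. Follicle-like cells at P0 (5) gave 2 at equal UMIs and 0 with the earlier library, and fibroblast-like cells at E14.5 (1) gave 0 at equal UMIs, without integration, without doublets and with the 2 groups. For the step to differentiated-like cells DESeq2 gave 3 in WT (5) and 1 in Grhl3-/- (5) at E14.5 and 1 in Grhl3-/- at E16.5 (2). Its difference between genotypes at P0 (3) gave 0 with DESeq2, 1 at a 5% mitochondrial limit and 5 at resolution 0.5. Follicle-like against basal-like cells at E16.5 (6) gave 3 with DESeq2. The cause of these shifts was not tested.

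Over all genes tested, the earlier library as WT took the calls at P0 from 5517 to 1706 in IFE, from 4708 to 237 in basal-like, from 3294 to 687 in differentiated-like, from 4301 to 43 in follicle-like and from 5857 to 873 in all cells. Equal total UMIs gave 3011, 2135 and 1757 in basal-like, differentiated-like and follicle-like cells, and a fit of the 2 groups 1345 in differentiated-like and 3899 in all cells. Before birth, no filter took the calls in IFE cells from 44 to 423 at E14.5 and from 181 to 805 at E16.5.

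Leaving out each library in turn gave 3 to 6 for IFE, 2 to 6 for basal-like, 2 to 5 for differentiated-like, 3 to 5 for follicle-like and 0 to 3 for all cells at P0, 0 to 1 for fibroblast-like cells at E14.5, and 0 for the other comparisons of genotypes before birth. It gave 0 to 1 and 6 to 7 for the steps of age in WT IFE cells. For the step to differentiated-like cells it gave 2 to 3, 3 and 7 in WT and 1, 0 to 2 and 3 to 5 in Grhl3-/- at E14.5, E16.5 and P0, and 0, 0 and 0 to 4 for the difference between genotypes. Against basal-like cells it gave 7 to 8 and 8 for fibroblast-like cells and 1 to 4 and 4 for follicle-like cells. Vangl1 in differentiated-like cells at P0 was the value that turned, from 0.64 without the second Grhl3-/- library to -0.98 without the first.

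Replicate numbers do not pair the libraries. The correlation across 2474 genes of the difference between replicates 1 and 2 in WT with that in Grhl3-/- was 0.0808 at E14.5, -0.283 at E16.5 and -0.0045 at P0. The replicate block gave 4 of the 10 genes for all cells at P0 (2), 0 for fibroblast-like cells at E14.5 (1), and otherwise counts within 1.5 times those reported. With the pairs crossed at E16.5 the block gave 0.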

Other observations

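For each of the 10 genes the gene with the most alike level over the WT cell classes was looked up among 10550 genes with a mean of at least 5 CPM, by Pearson's r of log2(CPM + 1) over 32 points of class and age. Points of the same age come from the same libraries, and the values are a description. Celsr1 was most like Rassf10 (r = 0.888), with the hemidesmosome integrin Itgb4 at 0.881. Fzd6 was most like Arhgef5 (0.918), and Vangl2 most like Tmem63b (0.908). Arhgef19 was most like Sostdc1 (0.889), an inhibitor of BMP and Wnt signals, and had the ligand Wnt6 (0.864) among its nearest. Ptk7 was most like Gorab (0.889) and had the Wnt receptor Fzd2 (0.859) among its nearest. The closest genes were Mpst for Vangl1 (0.878), Cyp39a1 for Fzd3 (0.869), Gnb2 for Rhoa (0.855), Aebp1 for Prickle1 (0.781) and Purb for Scrib (0.757). No gene of the 10 was among the nearest 3 of another. Between pairs of the 10, r ran from -0.249 for Arhgef19 and Rhoa to 0.868 for Celsr1 and Fzd6, with Vangl1 and Celsr1 at 0.839.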
